A study of Mus musculus with 6 samples.

Results

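Liver tumours of wild-type (WT) mice were set against WT liver of the same treatment and age, across all genes on the array. Both tissues came from mice of the C3H/HeNCrlBR background, were taken at 39 weeks of age, and followed initiation with diethylnitrosamine (DEN), a carcinogen that mutates hepatocyte DNA, and then phenobarbital (PB) in the drinking water, a drug that promotes tumour growth. No array held the 2 tissues together. Each was hybridised against CAR-knockout (CAR-KO) liver after the same DEN and PB treatment, which lacks the nuclear receptor encoded by Nr1i3, on 2 Agilent 2-colour arrays with the dyes swapped. The comparison is therefore indirect: for each probe, the log2 ratio of tumour over CAR-KO liver minus the log2 ratio of WT liver over CAR-KO liver, called the log2 difference here. It uses 4 of the 6 arrays of the series and all 20868 gene probes, of which 20743 could be tested and 9671 carried a single gene symbol (9531 genes). The other pair, CAR-KO liver with and without PB, entered the model to estimate the spread and the dye effect only.

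The labels do not give the number of animals, nor whether tumours or livers were pooled, nor whether 1 RNA extract served both dye orientations. The errors below therefore describe the spread between dye-swapped arrays, which may be technical. RNA was taken from whole tissue, so fewer cells of a type and less RNA per cell cannot be told apart. All 6 measured hepatocyte markers, among them transthyretin (Ttr) and Hnf4a, were well above background in both tumour channels and in both WT liver channels. A CAR-KO channel served both pairs, and its normalised level differed between the pairs with an SD of 0.368 log2 units over probes. Over 20628 probes that shift and the log2 difference had a Pearson r of -0.44, a description only, since both are computed from the same CAR-KO channels. The shift is given for the 5 genes whose promoters are shown and for other genes where it was large by value.

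Hepatocytes differ along the lobule. Cells around the central vein receive Wnt signals, keep beta-catenin active and make glutamine, while cells around the portal vein make urea and glucose. In mouse liver, PB acts through CAR to induce cytochrome P450 genes of drug metabolism, and mouse tumours promoted by PB are known for mutations that keep beta-catenin active. NRF2 is the transcription factor that induces antioxidant and detoxifying enzymes.

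The sequences shown here are the 250 bases before the transcription start of 5 genes, from RefSeq (GRCm38.p6), 5′ to 3′ on the gene's strand. The 5 were picked by hand and not by a rule, and the NRF2 gene Gpx2, not shown, had a larger difference than Ugdh. They show the Wnt-responsive gene and the periportal gene of largest difference, 2 NRF2 genes and the tubulin gene that the study took further, and capitals mark matches to the TCF/LEF core CTTTGAT or to the core of the NRF2 antioxidant response element, TGACNNNGC, each searched on both strands. The window of Sp5 lies at chr2:70474673-70474922 on the plus strand, that of Nqo1 at chr8:107403206-107403455 on the minus strand, that of Ugdh at chr5:65435843-65436092 on the minus strand, that of Tuba8 at chr6:121210484-121210733 on the plus strand and that of Cyp2f2 at chr7:27119705-27119954 on the plus strand.
Sp5: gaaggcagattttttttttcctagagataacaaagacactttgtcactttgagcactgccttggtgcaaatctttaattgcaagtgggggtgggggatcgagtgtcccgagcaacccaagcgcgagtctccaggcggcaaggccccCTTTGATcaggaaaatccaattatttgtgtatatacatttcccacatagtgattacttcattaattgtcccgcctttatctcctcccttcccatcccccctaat
Nqo1: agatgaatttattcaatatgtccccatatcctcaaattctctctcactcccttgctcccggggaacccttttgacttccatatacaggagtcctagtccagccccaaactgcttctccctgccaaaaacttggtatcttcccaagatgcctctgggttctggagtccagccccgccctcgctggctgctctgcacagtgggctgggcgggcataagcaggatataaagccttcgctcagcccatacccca
Ugdh: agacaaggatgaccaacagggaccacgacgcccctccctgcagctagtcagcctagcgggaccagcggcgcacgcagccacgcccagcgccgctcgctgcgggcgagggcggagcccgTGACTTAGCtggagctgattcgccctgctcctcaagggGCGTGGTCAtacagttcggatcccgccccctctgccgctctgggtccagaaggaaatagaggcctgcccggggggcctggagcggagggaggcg
Tuba8: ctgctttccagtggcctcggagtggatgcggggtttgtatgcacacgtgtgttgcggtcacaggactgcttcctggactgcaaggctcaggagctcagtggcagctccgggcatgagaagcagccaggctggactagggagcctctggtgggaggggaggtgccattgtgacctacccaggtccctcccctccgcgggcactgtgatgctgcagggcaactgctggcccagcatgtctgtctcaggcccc
Cyp2f2: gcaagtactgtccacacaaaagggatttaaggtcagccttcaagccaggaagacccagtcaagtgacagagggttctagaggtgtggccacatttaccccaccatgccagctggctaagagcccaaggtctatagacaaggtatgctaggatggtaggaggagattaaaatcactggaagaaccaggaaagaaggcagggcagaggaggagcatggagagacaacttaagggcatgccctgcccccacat
In these windows Sp5 held 1 TCF/LEF core, from 104 to 98 bases before the start, and Ugdh held 2 antioxidant cores, from 132 to 124 bases before it and, on the other strand, from 94 to 86. The matches do not overlap. The letters searched were not in the windows of Nqo1, Tuba8 or Cyp2f2, which says nothing of sites elsewhere. Of 27025 RefSeq promoters of this length, 872 (3.23%) held the TCF/LEF core and 2743 (10.15%) the antioxidant core. The first was in 3 of 15 matched pericentral genes and 2 of 9 matched periportal genes, the second in 3 of 11 matched NRF2 genes.

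Of the probes with a gene symbol, the furthest above WT liver in tumour were those of Nqo1, Sp5 and Nkd1, and the furthest below those of Fut2, Cyp2f2 and Olfr166, from 3.53-fold to 3.95-fold on the fitted scale. None of these passed the test over all probes. With limma, 0 of 20743 probes were higher and 0 lower (0% and 0%) at a Benjamini-Hochberg adjusted p under 0.05. The smallest adjusted p was 0.139, shared by 17 probes, and the median SE was 0.24 log2 units. At an unadjusted p under 0.05 there were 937 higher probes (4.52%) and 797 lower probes (3.84%), 1734 in all where chance alone gives 1037. With 1 probe per gene these were 536 of 9484 genes higher (5.65%) and 317 lower (3.34%).

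The count of 0 depends on the tumour arrays and on the fit. With array 1 of the tumour pair left out the test called 117 probes higher and 69 lower, and without array 2 it called 410 and 1712. The lone tumour array is then assumed to vary like the others. Array 2 of that pair was read by a different version of the scanner software, with a median local background of 288 (Cy3) and 299 (Cy5) against 53 to 62 on the other 5 arrays. When every channel was fitted as a measurement of its own (limma's separate-channel analysis), 301 of 20572 probes were higher (1.46%) and 55 lower (0.267%), or 191 of 9403 genes (2.03%) and 35 (0.372%). Median centring in place of the intensity-dependent loess normalization gave 47 higher and 0 lower.

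The balanced dyes allow the comparison to be made within each orientation, from arrays that are not shared. With tumour and WT liver both in Cy5 the log2 differences had an SD of 0.591 over probes, and with both in Cy3 an SD of 0.393. Of 20628 probes with both values, 55.9% had the same sign in the 2 orientations. At least 2-fold higher in both orientations were 87 probes, at least 2-fold lower in both were 31, and 7 were at least 2-fold apart in opposite directions.

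**Figure D1:**
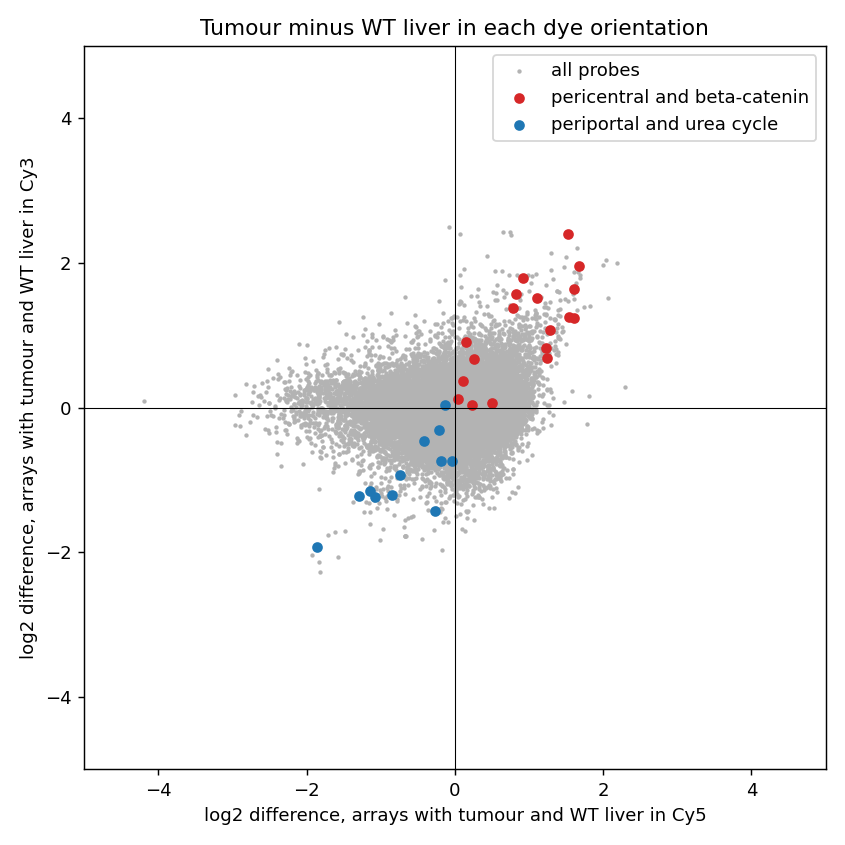
Each point is a probe, with its log2 difference (WT tumour minus WT liver) from the arrays with both tissues in Cy5 on the x axis and from the arrays with both in Cy3 on the y axis. All 18 pericentral and beta-catenin genes (red) lie above 0 in both orientations, and 11 of 12 periportal genes (blue) have the same sign in both, below 0. The grey cloud has a long left tail in the Cy5 orientation alone.

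Genes are named here as values from that fit. The named genes are those with the smallest unadjusted p in each direction, the genes the study is known for, and members of gene lists. These lists and their members were chosen with earlier results of these data known, so counts over a list are a description only. List members beyond the first 2 by p were chosen after their values were seen. "Passed separately" means an adjusted p under 0.05 in the separate-channel analysis, which uses the same arrays and is no independent evidence.

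Nqo1, the quinone reductase that is a standard NRF2 target, had log2 ratios to CAR-KO liver of 0.26 and 0.14 in WT liver and of 2.13 and 2.23 in tumour. Both tumour arrays lay far above both WT arrays, and the log2 difference was 1.98 ± 0.23 (SE, 2 arrays a tissue), 3.95-fold, with a limma adjusted p of 0.139 and a 95% interval of 1.44 to 2.52. The CAR-KO channel of Nqo1 was lower by value in the tumour pair (a shift of -0.81), and the separate-channel difference was 1.71. Sp5, a transcription factor switched on by Wnt signals, gave 0.35 and 1.09 in WT liver and 2.61 and 2.75 in tumour. Its log2 difference was 1.96 ± 0.27 (adjusted p = 0.139), with a CAR-KO channel shift of 0.06.

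Nkd1, an inhibitor that Wnt signalling itself induces, was already above CAR-KO liver in WT liver, with 1.53 and 1.42, and reached 3.10 and 3.49 in tumour. The log2 difference of 1.82 ± 0.22 was 3.53-fold. Pnliprp1, a gene of the pancreatic lipase family, showed the same order, with 2.50 and 2.19 in WT liver and 3.86 and 4.38 in tumour (1.77 ± 0.22). The 7 measured pancreatic acinar markers had a median of -0.09, with 3 positive and 4 negative, from -0.32 to 0.33. Of these, Pnlip had 0.32 ± 0.22 and Cela3b 0.33 ± 0.23. The summed normalised signal of the 7 was 1953 and 2038 in WT liver and 1636 and 1682 in tumour. Tubb6, a beta-tubulin, had 0.94 and 0.93 in WT liver and 2.54 and 2.82 in tumour (1.75 ± 0.23). Ahr, the dioxin receptor, had 0.91 and 1.03 against 2.64 and 2.56 (1.63 ± 0.22). In Nkd1, Pnliprp1, Tubb6 and Ahr both tumour arrays exceeded both WT arrays.

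The other genes of smallest p on this side lay nearer to CAR-KO liver in WT liver than Nkd1 and Pnliprp1 did. Vil1, the microvillus protein villin, had a log2 difference of 1.79 ± 0.24, and Akr1b7, an aldo-keto reductase, of 1.56 ± 0.22. Igfbp1, a secreted binding protein of insulin-like growth factors, had 1.50 ± 0.24, Abcc5, a drug efflux pump, 1.46 ± 0.23, and Nxpe2 1.76 ± 0.25. Rad51b, a recombination repair gene, had WT values of 0.45 and -0.51, nearly a log2 unit apart, and tumour values of 1.55 and 1.97, for a difference of 1.79 ± 0.24. The CAR-KO channel shifted by -0.69 for Rad51b, by -0.65 for Akr1b7 and by -0.43 for Nxpe2. The 12 genes of smallest p on this side all passed separately.

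Among genes below WT liver, Cyp2f2, a P450 enzyme of periportal hepatocytes, had log2 ratios of -0.17 and -0.13 in WT liver and of -1.99 and -2.10 in tumour. WT liver thus lay near CAR-KO liver and both tumour arrays lay far below. The log2 difference was -1.89 ± 0.24, a level 3.72-fold higher in WT liver (adjusted p = 0.139), with a CAR-KO channel shift of 0.06. The probe annotated to Fut2, a fucosyltransferase, had -0.39 and 0.44 against -1.50 and -2.42 (-1.98 ± 0.26). That annotated to the olfactory receptor Olfr166 had -0.30 and 0.23 against -1.35 and -2.36 (-1.82 ± 0.25). The probe for Olfr166 did not pass separately, and each of these genes had 1 probe. The probes annotated to Fut2 and Olfr166 were well above background in both channels of all 4 arrays, and whether they read these genes was not checked.

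The other genes of smallest p on this side encode enzymes, a protease inhibitor and serum amyloid proteins. Elovl3, a fatty acid elongase, had a log2 difference of -1.25 ± 0.22, the carboxylesterase Ces1e -1.34 ± 0.25 and the protease inhibitor Mug1 -1.09 ± 0.22. The steroid dehydrogenases Hsd3b5 and Hsd3b4 had -1.38 ± 0.24 and -1.15 ± 0.22. Pck1, which commits carbon to glucose synthesis, had -0.71 and -0.36 in WT liver and -1.65 and -1.93 in tumour (-1.26 ± 0.22), and Gldc, of glycine breakdown, had -1.16 ± 0.23. The serum amyloid genes Saa1 and Saa2 had -1.29 ± 0.24 and -1.24 ± 0.22. Some members of the Saa, Hsd3b, Cyp2b, Cyp2c and Gstm families are close in sequence. Their probes may read more than 1 member, which was not checked.

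**Figure D2:**
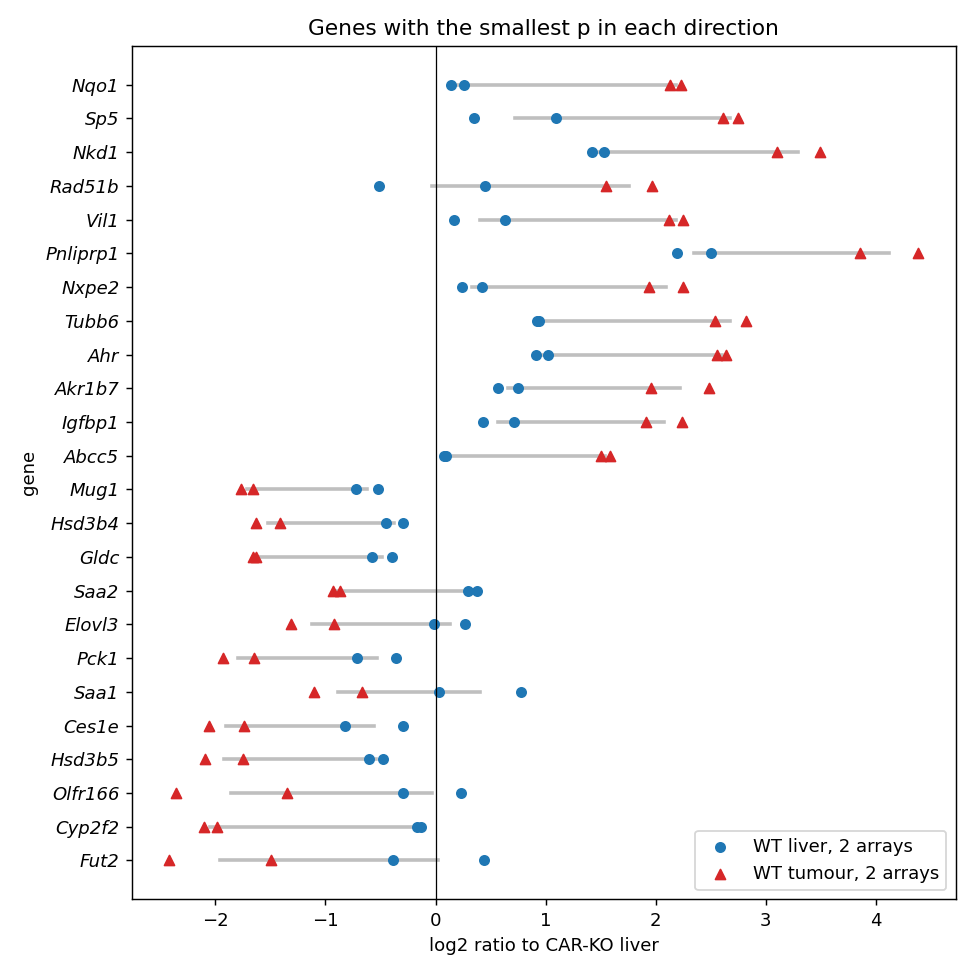
The x axis is the log2 ratio to CAR-KO liver and each line is a gene, with the 2 WT liver arrays as blue circles, the 2 tumour arrays as red triangles and a grey bar between the group means. The 24 genes are the 12 of smallest p in each direction, and tumour values reach 4.38 for Pnliprp1 and -2.42 for Fut2.

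Genes of the lobule's central zone had the highest median of the 37 lists. Because this list was chosen with earlier results of these data known, its counts are a description and no independent support. Of 18 measured pericentral and beta-catenin genes, all 18 had a positive log2 difference, with a median of 1.13, against 52.1% positive and 47.9% negative, and a median of 0.02, over all 9484 genes. At an unadjusted p under 0.05, 12 of 18 were higher and 0 lower, where all genes gave 5.65% higher, and 12 passed separately (2.03%). The median was 0.99 without array 1 of the tumour pair, 0.96 without array 2, and 1.33 with median centring. The same genes had a median ratio to CAR-KO liver of 0.47 in WT liver and of 1.76 in tumour.

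The pericentral members span transport, metabolism and Wnt signalling. Glul, glutamine synthetase, the enzyme of the last cell layer around the central vein, had ratios of 1.88 and 1.66 in WT liver and 3.27 and 3.12 in tumour. Its log2 difference was 1.43 ± 0.35, 2.69-fold. Slc1a2, a glutamate transporter of the same cells, had 0.84 and -0.08 against 1.46 and 2.09 (1.40 ± 0.24), and the ammonium transporter Rhbg had 2.42 and 1.91 against 2.69 and 3.79 (1.08 ± 0.24). In Rhbg the lower tumour array was close to the higher WT array.

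Ornithine aminotransferase (Oat) had a log2 difference of 1.18 ± 0.23, the dicarboxylate transporter Slc13a3 of 1.35 ± 0.28 and the aldehyde dehydrogenase Aldh3a2 of 1.31 ± 0.27. Lgr5, the R-spondin receptor that amplifies Wnt signals, had 0.08 and 0.81 against 1.64 and 1.64 (1.20 ± 0.25). Lect2, a secreted protein induced by beta-catenin, had 0.96 ± 0.24. Nr1i3, which encodes CAR itself, had 1.08 and 0.49 against 1.71 and 1.90, a log2 difference of 1.02 ± 0.23, and its CAR-KO channel shifted by -0.42 between the pairs. These ratios are to liver that lacks CAR, and what the probe reads there was not tested. Not every member was far from 0. Axin2, the Wnt feedback gene, had 0.29 ± 0.23, Tcf7 0.24 ± 0.22, and the pericentral P450 genes Cyp2e1 and Cyp1a2 had 0.13 ± 0.39 and 0.47 ± 0.37.

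Periportal genes lay on the opposite side. Of 12 measured periportal and urea cycle genes, 0 were positive, the median was -0.84, and 6 were lower and 0 higher at an unadjusted p under 0.05, where all genes gave 3.34% lower. Of the 12, 4 passed separately (0.372% lower over all genes). The median was -1.12 without array 1 of the tumour pair, -0.33 without array 2 and -0.44 with median centring, so its size depends on these choices. Its sign did not, although Asl and Nags turned positive with median centring.

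Besides Cyp2f2, Pck1 and Gldc, Etnppl, an ethanolamine phosphate lyase, had -1.27 and -1.43 in WT liver and -2.27 and -2.48 in tumour, a log2 difference of -1.03 ± 0.23. The urea cycle enzyme Arg1 had -0.28 and -0.67 against -1.82 and -1.44 (-1.15 ± 0.44), a difference with a wide error. The other urea cycle genes were nearer to 0: Ass1 had -0.83 ± 0.43, Asl -0.44 ± 0.50, Otc -0.39 ± 0.30 and Nags -0.05 ± 0.26. Histidine ammonia lyase (Hal) had -0.85 ± 0.34 and E-cadherin (Cdh1) -0.47 ± 0.24.

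**Figure D3:**
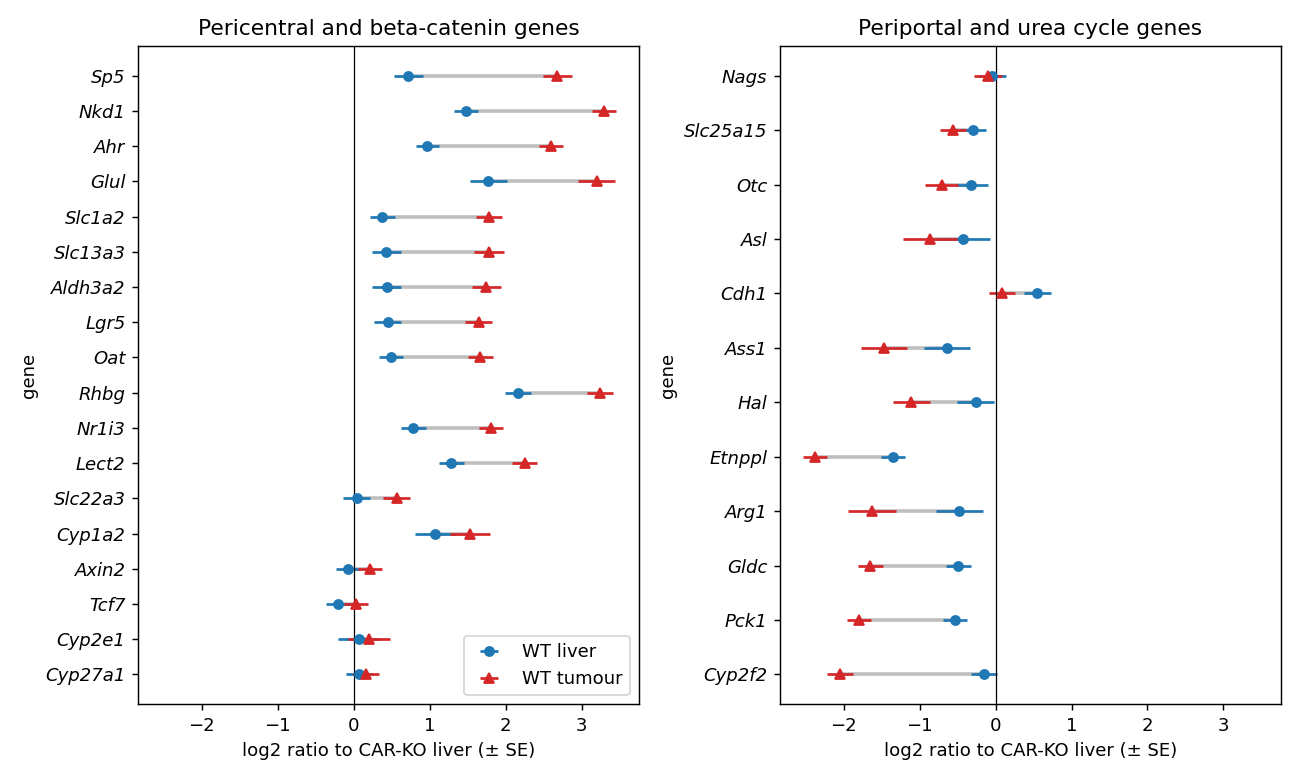
Both panels plot the log2 ratio to CAR-KO liver on the x axis, with the fitted mean and SE of WT liver (blue circles) and WT tumour (red triangles) for each gene. In the left panel the 18 pericentral genes have the tumour to the right of WT liver, and in the right panel the 12 periportal genes have it to the left.

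Genes of glucose production and amino acid breakdown share Pck1 with the periportal list. Of 18 measured, 14 were negative, with a median of -0.54, and 7 were lower and 0 higher at an unadjusted p under 0.05 (3.34% lower over all genes), while median centring turned the median to 0.07. With array 2 of the tumour pair left out the median was -0.32. Ftcd, of histidine breakdown, had -0.38 and -0.08 in WT liver and -1.08 and -1.34 in tumour (-0.98 ± 0.22), and the transaminase Got1 had -1.07 ± 0.27. The gluconeogenic phosphatase Fbp1 had -0.82 ± 0.22 and the peroxisomal transaminase Agxt -0.76 ± 0.23, both of which turned positive with median centring. Gnmt, which uses methyl groups from methionine, had -1.18 ± 0.41, G6pc -0.58 ± 0.27 and the pyruvate carboxylase gene Pcx 0.08 ± 0.34.

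The drug metabolism genes that set WT tissue apart from CAR-KO liver had values on both sides of 0 between tumour and WT liver. Of 23 measured CAR and PB genes, 15 were positive and 8 negative (median 0.28), with 7 higher and 0 lower at an unadjusted p under 0.05 (5.65% higher over all genes) and 5 that passed separately (2.03% over all genes). The median was 0.89 with median centring, which turned 7 of the 8 negative genes. Cyp2b10, the classical PB-induced P450, had 2.07 and 1.72 in WT liver and 1.96 and 2.65 in tumour, so the tissues overlapped (0.41 ± 0.23, 95% interval -0.13 to 0.95). Cyp2b9 had 4.89 and 4.64 against 3.88 and 4.59 (-0.53 ± 0.28), with a CAR-KO channel shift of 0.98 and a separate-channel difference of -0.19. Cyp2b13 had 4.02 and 3.21 against 4.28 and 4.85 (0.95 ± 0.25). The 95% intervals of Cyp2b9 and Cyp2b10 hold 0, which does not show that the levels were alike.

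The Cyp2c members also went separate ways by value. Cyp2c55 had 2.71 and 2.63 in WT liver and 3.52 and 3.64 in tumour (0.91 ± 0.22), Cyp2c37 had 3.17 and 3.20 against 2.69 and 2.71 (-0.48 ± 0.21), and Cyp2c29 had 2.46 and 2.12 against 2.13 and 2.16 (-0.15 ± 0.23). The values for Cyp2b9, Cyp2c37 and Cyp2c29 turned positive with median centring. The P450 reductase Por, the electron donor of these enzymes, had 0.24 ± 0.24, and Cyp3a11 -0.08 ± 0.30. Among conjugating enzymes and pumps, Gstm2 had 2.48 and 2.20 against 3.54 and 3.27 (1.06 ± 0.27), the bilirubin conjugate pump Abcc2 had 0.51 and 0.59 against 1.56 and 1.45 (0.95 ± 0.21), and Gsta1 had 0.79 ± 0.23. The probe for Gstm1 was saturated in tumour and is given no fold.

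**Figure D4:**
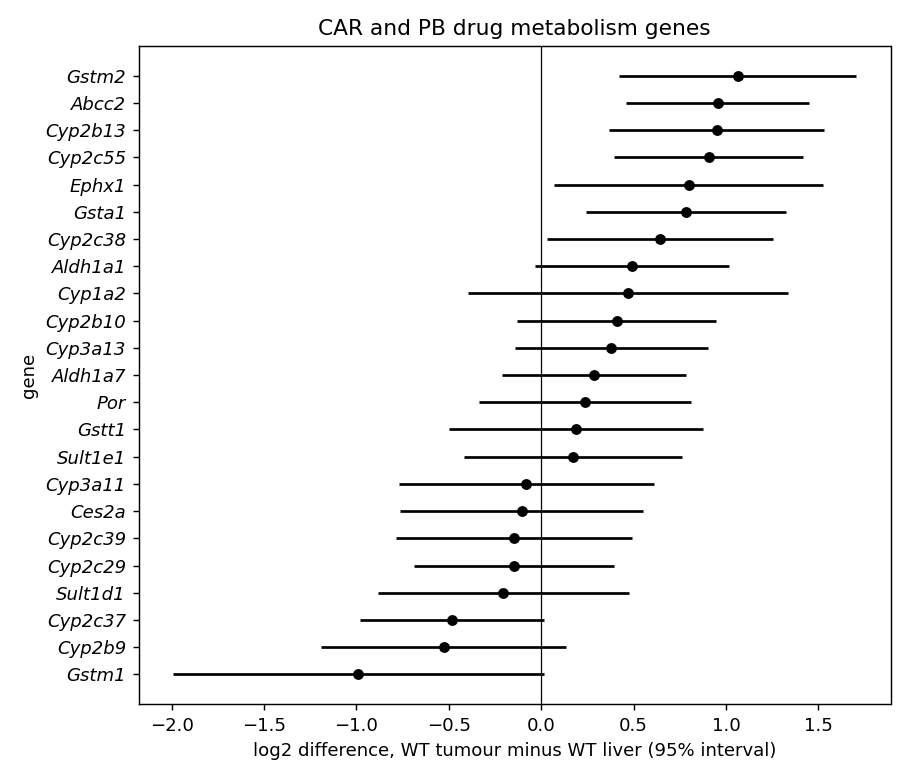
The x axis is the log2 difference (WT tumour minus WT liver) of the 23 CAR and PB drug metabolism genes, with the 95% interval of the limma fit. Intervals above 0 belong to 7 genes, from Gstm2 at 1.06 to Cyp2c38 at 0.64, and Cyp2b10, Cyp2b9 and Por have intervals that hold 0. The probe for Gstm1, drawn lowest, was saturated in tumour.

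Tuba8, the alpha-tubulin that the study took further, had ratios of 1.14 and 1.67 in WT liver and of 2.51 and 2.97 in tumour. Both tumour arrays lay above both WT arrays. The log2 difference was 1.34 ± 0.28, 2.53-fold, with a 95% interval of 0.68 to 2.0 and a limma adjusted p of 0.316. The CAR-KO channel shifted by 0.36. The probe was dim, and on the Agilent software's own processed signals the difference was -0.12. Over 17 alternatives it ran from -0.12 to 1.75 and passed in 3, with adjusted p from 0.00515 to 1.0. The 2 orientations gave 0.84 and 1.84.

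Of 11 measured tubulin genes, 9 were positive (median 0.34, and 0.71 with median centring). At an unadjusted p under 0.05, 3 were higher and 0 lower (5.65% higher over all genes), and 2 passed separately (2.03%). Tubb5, the common beta-tubulin of dividing cells, had 0.44 and 0.11 against 0.81 and 1.22 (0.74 ± 0.24). Tuba1a had 0.37 ± 0.28, Tuba4a 0.32 ± 0.36, Tubb2b -0.43 ± 0.21 and the gamma-tubulin Tubg1 0.53 ± 0.25.

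Of 13 measured NRF2 antioxidant genes, 12 were positive (median 0.52), with 6 higher and 0 lower at an unadjusted p under 0.05 (5.65% higher over all genes) and 5 that passed separately (2.03%). The median was 1.23 with median centring. Beside Nqo1, the glutathione peroxidase Gpx2 had 0.52 and 0.38 in WT liver and 1.64 and 1.90 in tumour (1.32 ± 0.23). Ugdh, which makes the sugar for glucuronidation and whose promoter held 2 antioxidant cores, had 1.06 and 1.01 against 2.03 and 2.18 (1.07 ± 0.24), with a CAR-KO channel shift of 0.15. Glutathione reductase (Gsr) had 1.0 ± 0.22, thioredoxin reductase (Txnrd1) 0.77 ± 0.23 and Hmox1 0.52 ± 0.22. Other members lay near 0 or below it. Gclm, the regulatory subunit of glutathione synthesis, had 0.04 ± 0.32 and Gstp1 had -0.65 ± 0.40, which turned positive with median centring.

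Growth-related genes held a few large differences among many small ones. Of 21 measured tumour and fetal liver markers, 17 were positive with a median of 0.21, and 7 were higher and 0 lower at an unadjusted p under 0.05 (5.65% higher over all genes). The median was 0.32 without array 2 of the tumour pair and 0.39 with median centring. Igf2, the fetal growth factor, had 0.87 and 0.21 in WT liver and 1.69 and 2.37 in tumour (1.49 ± 0.27). Dlk1, a fetal liver surface protein, had 0.11 and -0.13 against 1.25 and 1.39 (1.34 ± 0.23), with a CAR-KO channel shift of -0.91, and did not pass separately. Ly6d, a surface protein, was far above CAR-KO liver in both tissues, with 3.74 and 3.41 against 4.85 and 4.78 (1.24 ± 0.24). Scd2, a fatty acid desaturase, had 1.41 ± 0.32 and the keratin Krt19 1.12 ± 0.23. The classical markers alpha-fetoprotein (Afp) and Gpc3 had 0.14 ± 0.21 and 0.21 ± 0.25, and H19, the imprinted neighbour of Igf2, had 0.22 ± 0.22.

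The insulin-like growth factor axis was split by value: Igf1, the growth-hormone-driven form made by adult hepatocytes, had -0.69 and -0.48 in WT liver and -1.48 and -1.87 in tumour (-1.09 ± 0.27), against the positive values of Igf2 and Igfbp1. The CAR-KO channel of Igf1 shifted by -0.46. The 15 measured members had a median of 0.07 (-0.08 and 0.26 without array 1 or 2 of the tumour pair). At an unadjusted p under 0.05, 2 were higher and 1 lower (5.65% and 3.34% over all genes).

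Cell cycle genes were positive in 17 of 22 (median 0.41), with 7 higher and 0 lower at an unadjusted p under 0.05 (5.65% higher over all genes) and 2 that passed separately (2.03%). The median was 0.68 with median centring. The mitotic kinase Plk1 had 0.20 and 0.23 in WT liver and 1.18 and 1.29 in tumour (1.02 ± 0.22). The replication licensing gene Mcm7 had 0.06 and 0.03 against 1.02 and 1.0 (0.97 ± 0.22), and Mcm2, Mcm4, Mcm5 and Mcm6 had between 0.47 and 0.80. Other proliferation genes did not share this: Top2a had -0.54 ± 0.31, Foxm1 -0.28 ± 0.34 and Ccnb1 -0.23 ± 0.22. Among 18 immediate early genes the median was 0.14, with Jun at 1.05 ± 0.33, Klf6 at 0.89 ± 0.22 and Myc at 0.63 ± 0.21, and Fos at -0.71 ± 0.33.

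Genes of lipid synthesis were mostly positive by value. Of 14 measured cholesterol synthesis genes, 13 were positive (median 0.57), with 6 higher and 0 lower at an unadjusted p under 0.05 (5.65% higher over all genes) and 3 that passed separately (2.03%). The median was 0.36 without array 1 of the tumour pair and 1.10 with median centring. Nsdhl had -0.08 and 0.06 in WT liver and 1.01 and 1.06 in tumour (1.04 ± 0.24), Fdps 1.0 ± 0.24, Mvd 0.87 ± 0.25 and Sqle, the squalene epoxidase, 0.78 ± 0.21. Of 11 fatty acid synthesis genes, 9 were positive (median 0.41), led after Scd2 by the elongase Elovl6 (1.02 ± 0.23), while Scd1, the main desaturase of liver, had 0.06 ± 0.25. That median was 0.69 without array 1 of the tumour pair, 0.23 without array 2 and 0.87 with median centring.

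Of 13 fatty acid oxidation genes, 9 were positive (median 0.44, and 0.75 with median centring), with 5 higher and 0 lower at an unadjusted p under 0.05 (5.65% higher over all genes). Cd36, a fatty acid uptake receptor, had 0.27 and 0.08 in WT liver and 1.90 and 1.68 in tumour (1.62 ± 0.28). Acot1, a thioesterase induced by the receptor PPARα, had -0.32 and -0.36 against 0.96 and 1.46 (1.55 ± 0.25), and Pdk4, which blocks glucose oxidation, had 1.06 ± 0.26. Ppara itself had -0.09 ± 0.47. Of 15 apolipoprotein genes, Apoa4 had 1.32 and 0.33 against 1.70 and 2.93 (1.49 ± 0.34), with a median of -0.15 for the list that turned to 0.53 with median centring.

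Male-biased and acute phase genes lay mostly below WT liver by value, and median centring turned both medians. Of 13 measured male-biased liver genes, 11 were negative (median -0.65, turned to 0.05 by median centring), and 4 passed separately (0.372% lower over all genes). At an unadjusted p under 0.05, 6 were lower and 0 higher (3.34% lower over all genes). These include Hsd3b5, Elovl3, the nucleotide hydrolase gene Nudt7 (-0.77 ± 0.25) and Cyp7b1 of bile acid synthesis (-0.69 ± 0.26), which had 0.05 each with median centring. The probe for Mup1, counted among the 6 and the 4, was saturated in every channel and is given no fold. With array 2 of the tumour pair left out the median was -0.38. Of 14 female-biased genes, 5 were positive (median -0.07), with 3 higher and 0 lower at an unadjusted p under 0.05 (5.65% higher over all genes).

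Of 17 measured acute phase genes, 14 were negative (median -0.37, turned to 0.33 by median centring). At an unadjusted p under 0.05, 6 were lower and 0 higher (3.34% lower over all genes), and 2 passed separately (0.372%). With array 1 of the tumour pair left out the median was -0.64 and without array 2 -0.16. Saa1 had 0.77 and 0.04 in WT liver and -1.11 and -0.67 in tumour. Saa2 had 0.38 and 0.29 against -0.87 and -0.93, with little spread within either tissue. The fibrinogen chain Fgg had -1.02 ± 0.24 and Saa3 -0.80 ± 0.28 (-0.39 without array 2 of the tumour pair), while the C-reactive protein gene Crp and Orm2 had 0.12 ± 0.25 and 0.22 ± 0.22. Hamp, which encodes the iron hormone hepcidin, had -0.94 and -0.69 against -1.76 and -2.04 (-1.08 ± 0.24), and the 16 iron genes had a median of -0.03.

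Lists of immune, stromal and other cell types mostly had medians near 0. The 10 macrophage markers had a median of 0.05, the 14 lymphocyte markers 0.03, the 13 endothelial markers -0.11, the 9 cholangiocyte markers -0.01 and the 9 stellate cell and fibroblast markers -0.27. Krt19 was the only cholangiocyte marker past an unadjusted p of 0.05, with Krt7 at 0.09 ± 0.22 and Epcam at -0.01 ± 0.22. The 5 erythroid markers had the lowest median, -0.48, and their summed normalised signal was 10260 and 8419 in WT liver and 5181 and 5620 in tumour, led by the haemoglobin gene Hba-a1 (-0.99 ± 0.23). The list median was -0.15 without array 1 of the tumour pair and -0.81 without array 2. All 5 were well above background in both tissues. The 6 hepatocyte markers had a median of -0.18, which was -0.40 without array 1 of the tumour pair, 0.01 without array 2 and 0.66 with median centring. The part of blood in other differences was not tested.

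**Figure D5:**
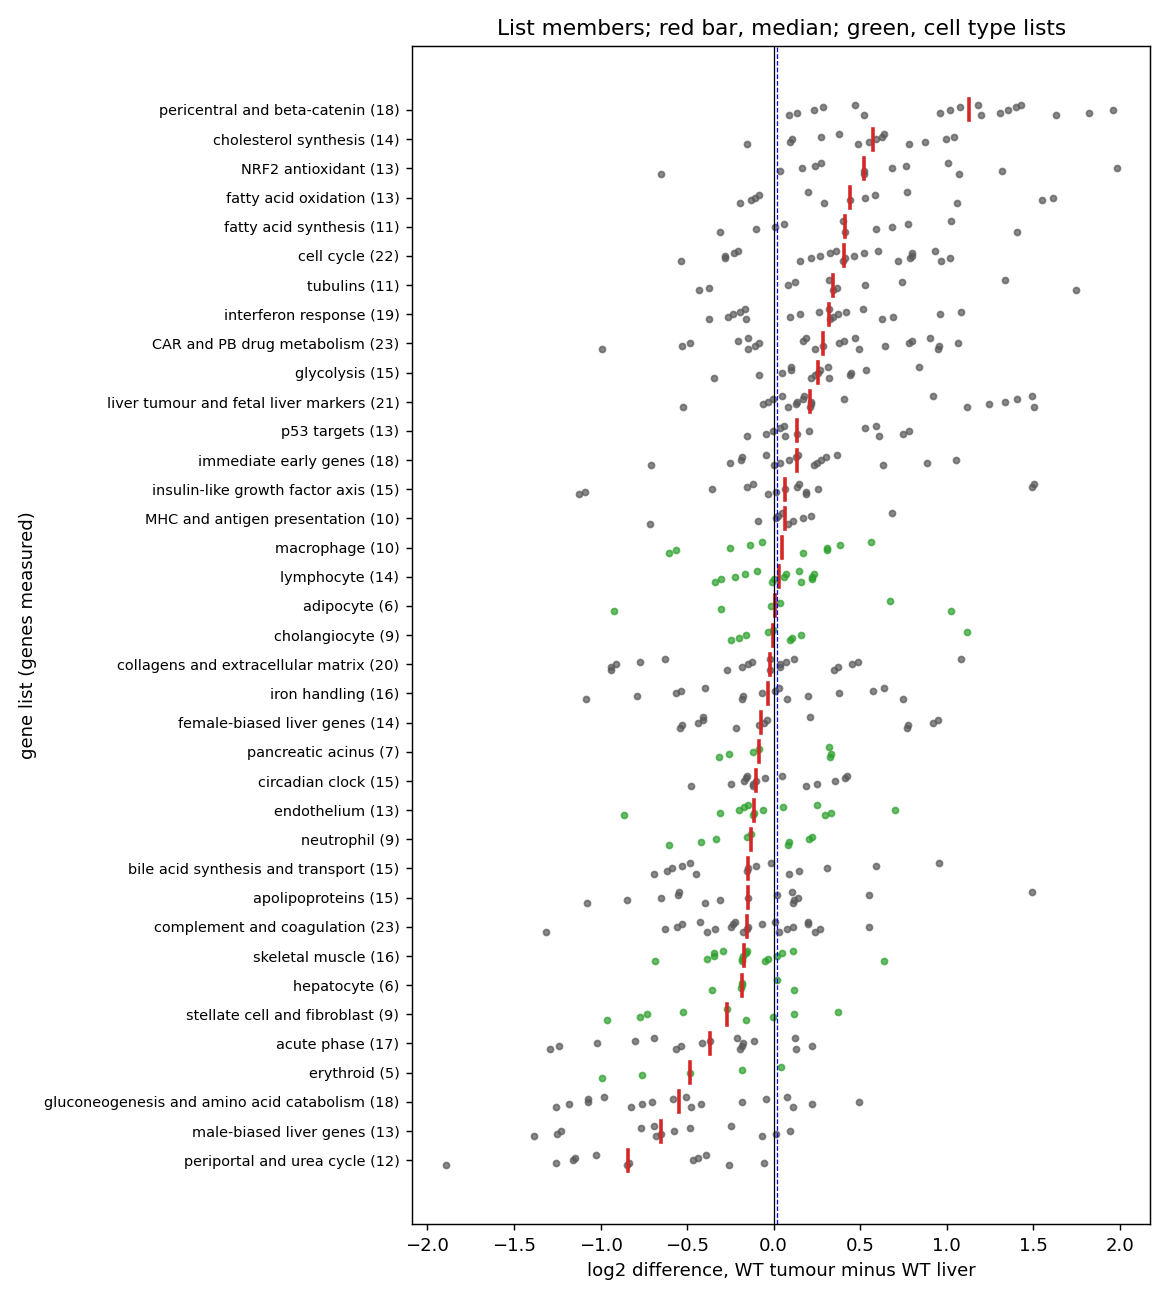
Each row is a gene list, with the number of genes measured in brackets, and the x axis is the log2 difference (WT tumour minus WT liver) of each member, with the list median as a red bar and the median of all genes (0.02) as a dashed line. Points of the saturated probes (Mup1, Gstm1, Apoe) are included. Medians run from 1.13 for pericentral genes to -0.84 for periportal genes, and the 11 cell type lists (green) have medians between -0.48 and 0.05.

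Of 19 interferon response genes, 13 were positive (median 0.32), with 4 higher and 0 lower at an unadjusted p under 0.05 (5.65% higher over all genes). The median was 0.14 without array 1 of the tumour pair and 0.20 with median centring. Usp18, which restrains interferon signalling, had 0.62 and 0.24 in WT liver and 1.42 and 1.37 in tumour (0.96 ± 0.24), and the chemokine Cxcl10 had 1.08 ± 0.29. Isg15, a ubiquitin-like protein of the same response, had -0.26 ± 0.38. Of 20 matrix genes, Sparc had 0.14 and 0.11 against 1.51 and 0.91 (1.08 ± 0.27) while decorin (Dcn) had -0.77 ± 0.29, for a list median of -0.02. Dcn had -1.21 without array 1 of the tumour pair, -0.33 without array 2 and -0.34 with median centring. Tnnc2, a muscle troponin gene named for its low ratio to CAR-KO liver, had -1.96 and -1.61 in WT liver and -1.73 and -1.94 in tumour, so the tissues overlapped (-0.05 ± 0.21).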

How the data were processed

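The deposited scanner files give, per the file headers, mean spot and local background intensity values in Cy3 and Cy5 without normalization, and the intensity after background subtraction and dye normalization by the authors in Agilent Feature Extraction. Their deposited log10 ratio sets red over green of these processed signals, and the value table matched it exactly (largest difference 0). Spot flags were also deposited. Per the file headers the software was version 7.1.1 for 5 arrays and 7.5.1 for the tumour pair's array 2, although 7.5 stands in the submitters' processing notes. The genome build is not given in the sources used here.

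Each array had 22393 spots, 1075 of them controls. Spots with an outlier flag (6 to 55 per array) were left out and spots of a probe averaged. Between 84.44% and 98.67% of probes per channel were well above background. The number of arrays limits the precision. Signals were corrected with normexp (offset 50), normalized by loess and turned so that the WT tissue is the numerator. Log2 ratios of all 6 arrays were fitted with limma 3.58.1 (R 4.3.3; lmFit, eBayes, 2-sided) with a dye effect per probe, leaving 2 residual and 5.463 prior degrees of freedom. Probes entered the test if either channel was well above background on 2 or more of the 6 arrays. A probe missing on 1 of the 4 arrays of the comparison (115 probes) took its value from the remaining ones. SE values are limma's, and 95% intervals use its moderated degrees of freedom. The tests were checked on simulated data with independent errors of the fitted spread. At an adjusted p under 0.05, limma called 8 of 50 probes with a simulated difference of 1 log2 unit and 43 of 50 with 2. There were 8 false calls in that fit of 20572 probes.

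Symbols came from RefSeq (GRCm38.p6) by accession (8947 probes), symbol (371) or older symbol (353), and 11197 probes were unnamed. The brightest probe stood for a gene. Named were the 12 genes of smallest p in each direction with the same sign in both orientations and a signal above background, Nr1i3, Tuba8, up to 2 members of smallest p per list, and genes known for their ratio to CAR-KO liver. The members and lists were chosen with earlier results of these data known. Alternatives covered background, normalization, filters, the model and each array left out. Array 2 of the tumour pair was the only array read by its software version, so a term for that version equals leaving that array out.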

Additional observations from a re-analysis of the deposited data

Results flagged for a closer look

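For 10 of the 95 genes chosen by the naming rule, both WT liver arrays lay on one side of CAR-KO liver and both tumour arrays on the other. The share of all genes with this pattern was not counted, so the 10 have no background to be read against. The opposition of signs itself was not tested, and none of the differences passed limma's test over all probes.

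On the lower side, Saa1 had a log2 difference of -1.29 and Saa2 of -1.24. Both serum amyloid genes, which encode acute phase proteins, were above CAR-KO liver in WT liver and below it in tumour, with Saa1 at only 0.04 on array 2 of the WT pair. Col15a1, a basement membrane collagen, had -0.94 (-0.36 without array 1 of the tumour pair and -1.51 without array 2), Cry1, a clock repressor, -0.48, and Ciita, the regulator of MHC class II genes, -0.72. The neutrophil genes Camp and S100a9 had -0.60 and -0.42. Camp was the lowest of 9 measured neutrophil markers, of which 4 were positive and 5 negative (median -0.13). The tumour values of Ciita were -1.19 and -0.02, those of Camp -0.77 and -0.12 and those of S100a9 -0.62 and -0.07, so each had 1 array close to 0. Ciita was well above background on 1 of the 2 WT liver arrays, and Camp on 1 of the 2 tumour arrays.

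On the higher side, Acot1 had 1.55, with a gap between the tissues that exceeded the spread within either. Stab1, a scavenger receptor of liver sinusoidal endothelium, had 0.70, with -0.30 and -0.34 in WT liver and 0.40 and 0.37 in tumour. It was the highest of 13 endothelial markers, of which 5 were positive and 8 negative (median -0.11). The lowest was Eng at -0.86 (-0.26 without array 1 of the tumour pair and -1.46 without array 2). Eno3, the muscle enolase that liver also makes, had 0.64.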

How the results depend on the processing

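Over all 500 list members and named genes, 244 kept their sign in every alternative run, 123 changed sign with median centring, and 334 moved over 1.5 times when 1 tumour array was left out. Of the 95 genes that the naming rule chose, largely by small p, 84 kept their sign in each of 17 alternatives, and over all pairs of these genes and alternatives 1442 kept sign and side of the threshold, 154 newly passed and 17 changed sign. Counts of probes moved with median centring (47 higher), with separate channels (301 higher, 55 lower) and with an array left out (0 to 410 higher, 0 to 1712 lower). The other alternatives gave 0 higher and 0 lower, with a smallest adjusted p of 0.0799 (intensity trend) to 0.787 (processed signals). Of probes at an unadjusted p under 0.05 the higher share was 54.0%, and it was 65.2% without a dye effect, 34.2% without array 1 of the WT pair and 39.1% without array 2 of the tumour pair.

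Among these 95, median centring turned Ahsg to 0.60, Cd3e to 0.37, Cyp2b9 to 0.17, Cyp2c29 to 0.70, Cyp2c37 to 0.33, Cyp7b1 to 0.0459, F11 to 0.20, Hnf4a to 0.28 and Tnnc2 to 0.0903. Tnnc2, near 0 throughout, also had 0.0340 without background subtraction, 0.0792 with an offset of 10 and 0.32 on processed signals. With 1 array left out Tnnc2 ran from -0.13 to 0.0342, Cyp2c29 from -0.35 to 0.0548 (highest without array 2 of the tumour pair) and Gzma from -0.89 to 0.21 (highest without array 1 of the WT pair). Tuba8 had -0.12 on processed signals. The cause was not tested in any of these. No paired analysis was made because the labels do not link a tumour array to a WT liver array. Dye orientation is covered by the dye effect. Dim probes such as that of Tuba8 are limited by signal over background, and 26 probes were saturated in a tumour or WT channel.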

Other observations

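Other gene groups gave smaller values. Of 13 measured p53 targets, 10 were positive (median 0.14, and 0.45 without array 1 of the tumour pair), with 5 higher and 0 lower at an unadjusted p under 0.05 (5.65% higher over all genes) and 0 that passed separately. The cyclin gene Ccng1 had 0.18 and 0.16 in WT liver and 1.24 and 0.66 in tumour (0.78 ± 0.24), the stress cytokine Gdf15 0.75 ± 0.27 and Phlda3 0.61 ± 0.25, while Mdm2, the p53 ubiquitin ligase, had -0.15 ± 0.30. Of 15 glycolysis genes, 13 were positive (median 0.26, and 0.57 with median centring), and only hexokinase 2 (Hk2), with 0.14 and 0.01 against 0.67 and 1.16 (0.84 ± 0.22), passed that threshold.

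The 23 complement and coagulation genes had a median of -0.15, which median centring turned to 0.56, and C9 of the membrane attack complex had -1.32 ± 0.44 (-2.01 without array 1 of the tumour pair and -0.63 without array 2). The bile acid list had a median of -0.15 over 15 genes (0.40 with median centring). Its canalicular pump Abcc2 was described above, the basolateral uptake transporter Slc10a1 had -0.59 ± 0.25, and Cyp7a1, the rate-limiting enzyme of bile acid synthesis, had 0.15 ± 0.25. The 15 clock genes had a median of -0.10 and the 10 genes of MHC and antigen presentation one of 0.07. Of 6 adipocyte markers, 3 were positive and 3 negative, from -0.92 to 1.03 (median 0.01). At an unadjusted p under 0.05, 2 were higher and 1 lower (5.65% and 3.34% over all genes). Lpl, a lipoprotein lipase, had 0.69 and 1.19 in WT liver and 1.88 and 2.05 in tumour (1.03 ± 0.29). Fabp4 had 0.67, and Adipoq, which defines fat cells, had -0.02 ± 0.21. The 9 neutrophil markers had a median of -0.13 and the 16 skeletal muscle markers one of -0.17.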
